A study of Mus musculus with 8 samples.

Results

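The genes of the cytosolic ribosomal proteins were compared between control and AF1 peptide in the liver of obese, diabetic mice. Members were the rows of the count table whose symbol is Rpl or Rps followed by a number, with an optional letter and number, together with Rplp0, Rplp1, Rplp2 and Rpsa, and the Rps6k kinases were left out. This gave 87 of the 21532 genes, 52 named for the large subunit and 35 for the small subunit. The db/db genotype removes a functional leptin receptor, and such mice grow obese and diabetic. All 8 mice were male db/db mice, 4 given control and 4 given AF1 peptide, a synthetic peptide derived from estrogen receptor α, both at 5 mg/kg body weight by retro-orbital injection, from an age of 8 weeks and for 5 weeks with 2 injections in each. RNA came from whole frozen liver, with 1 stranded mRNA library per mouse, so that fewer cells of a type and less RNA per cell cannot be told apart.

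Each ribosome is built from one large and one small subunit, and ribosomal proteins are needed in nearly equal numbers, so cells hold the output of these genes in close balance. Most mouse ribosomal protein mRNAs start at a C followed by a run of pyrimidines, the 5′ terminal oligopyrimidine (TOP) motif. Through this motif mTORC1, a kinase that responds to insulin and amino acids, and the RNA-binding protein LARP1 control how much of the mRNA is translated. That control acts on translation, which RNA-Seq does not measure. Only mRNA levels are described here.

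The start regions of several genes with the smallest p values and of some others described further on are printed to show where pyrimidine runs lie. The 30 bases around each RefSeq transcription start are printed 5′ to 3′ on the gene's strand, with 15 bases on each side of the boundary at which the transcript begins. Coordinates are of RefSeq build GRCm38.p6, and capitals mark the part, inside these 30 bases, of any unbroken run of 8 or more C or T.
Rpl13a, chr7:45128731-45128760, minus strand: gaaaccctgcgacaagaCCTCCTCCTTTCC
Rpl38, chr11:114668565-114668594, plus strand: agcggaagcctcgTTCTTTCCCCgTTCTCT
Rpl22l1, chr3:28805493-28805522, plus strand: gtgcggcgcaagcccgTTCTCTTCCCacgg
Rpl36a, chrX:134585639-134585668, plus strand: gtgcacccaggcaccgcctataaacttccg
Rps26, chr10:128626492-128626521, minus strand: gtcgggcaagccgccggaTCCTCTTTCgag
Rps6, chr4:86857353-86857382, minus strand: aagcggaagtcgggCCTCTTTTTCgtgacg
Rplp2, chr7:141447636-141447665, plus strand: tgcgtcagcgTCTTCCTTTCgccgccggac
Rpl28, chr7:4792950-4792979, plus strand: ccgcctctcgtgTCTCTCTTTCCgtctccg
Rps28, chr17:33824548-33824577, minus strand: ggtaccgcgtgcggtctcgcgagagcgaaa
A run crosses the annotated start or lies close to it in 7 of these sequences, and the printed bases of Rpl36a and Rps28 hold none. The first base after the boundary is C in Rpl38, Rps6, Rplp2, Rpl28 and Rps28, and G in Rpl13a, Rpl22l1, Rpl36a and Rps26, so an annotated start does not by itself show the motif. A RefSeq promoter was matched to 63 members, and in 22 of these any annotated start had C as its first base. The printed genes were not picked to represent the members. A run of 8 or more C or T within 40 bases of the start, on the gene's strand, was found in 49 of them (77.8%), against 32.6% of the promoters of 27025 genes. The letters CCGGAAG, an ETS-type site, were found on either strand within the 300-base promoter in 41.3% of the members and 9.93% of all promoters. AAGATGGC, a YY1-type site, was found in 9.52% and 3.19%. The end of the first and the start of the second can be the same letters AAG, and CTTCC in the reverse complement of the first can lie in a pyrimidine run.

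Recovered reads ranged from 23031880 (AF1 peptide replicate 2) to 45117528 per mouse. Summed levels of 6 hepatocyte markers, all of them in the table, ranged from 2605960 to 2736880 normalized counts in control livers. AF1 peptide replicate 1 stood apart from the other libraries, with the lowest hepatocyte sum (1692630), the lowest sum of 6 Kupffer cell markers (2283 against 5142 to 6450 in control mice) and the lowest share of mitochondrial-genome reads (21.1% against 22.6 to 38.2% in the other 7). Of the 6 hepatocyte markers, Alb, Apoa1, Ttr and Fabp1 were lowest in this mouse, but Cps1 (34576 against 5979 to 13727) and Cyp2e1 (117704 against 59170 to 111379) were highest. The counts of members passing the test, the median fold changes of the subunits and the summed levels are therefore also given without this mouse. None of 6 exocrine pancreas markers was in the table, and red blood cell markers summed to 34147 to 123375 in control and 27111 to 51923 in AF1 peptide-treated mice. The value of 123375 was that of control replicate 4, and the other controls had 34147 to 44635. The part of these differences in the results was not tested.

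Most members were among the abundant mRNAs of the liver. The mean level over the 8 mice was above 1000 normalized counts in 78 of the 87, with a median of 6419. Per kilobase of the longest reference transcript, the 3 highest levels in the large subunit were those of Rpl36 (20308 normalized counts per kb), Rpl19 (20016) and Rplp1 (18848), a protein of the acidic stalk that recruits translation factors. In the small subunit they were those of Rps15 (20575), a protein of the subunit head, Rps2 (17991), which lies near the entry of the mRNA, and Rps29 (15369), a small zinc-binding protein. The lowest were Rpl39l (1.92), Rpl3l (5.96) and Rpl28 (10.8) among large subunit genes, and Rps3a3 (85.1) and Rps15a (590.2) among small subunit genes. A level above 1000 per kb was reached by 77 members. The per-kb value depends on the transcript chosen, because for some genes the longest annotated transcript is far longer than the coding one. Rps28 was at 2722 by the longest and 8990 by the longest coding transcript. For Rps15a both transcripts are 5179 bases long, so its low value per kb comes with a mean level of 3057 normalized counts.

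**Figure D1:**
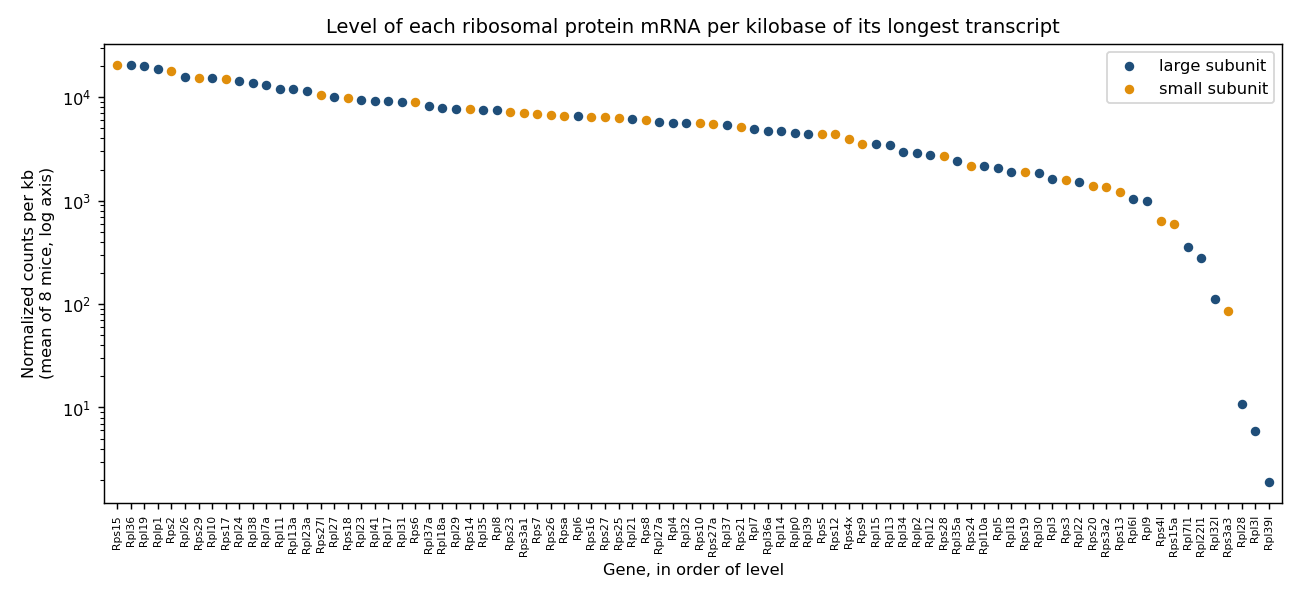
Level of 86 of the 87 genes, as normalized counts per kilobase of the longest reference transcript (mean of 8 mice, log axis), in order of level and coloured by subunit. A long shelf runs from Rps15 at 20575 down to about 1000, and a steep tail ends at Rpl28 (10.8), Rpl3l (5.96) and Rpl39l (1.92).

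Several of the lowest members are duplicates or tissue-restricted relatives of a main gene, and 5 members (Rpl6l, Rpl32l, Rps3a2, Rps3a3 and Rps4l) have no coding transcript in the reference. Rpl3l, the striated muscle form of Rpl3, had 0.0955 to 0.295% of the level of Rpl3 in the control group and 0.220 to 0.454% in the AF1 peptide group. Rpl39l, known from testis, was at 0, 0, 1.08 and 1.67 normalized counts in control mice 1 to 4 and at 2.80, 0, 4.94 and 1.84 in AF1 peptide mice 1 to 4, and both genes were below the minimum mean of 10 for the test. Rpl7l1 had 10.5 to 14.01% of the level of Rpl7 in control and 10.4 to 12.5% in AF1 peptide-treated mice. Rps27l, a p53-responsive relative of Rps27, was the only one of these relatives to exceed its partner, with 138 to 164% of its count in control mice. With AF1 peptide this value was 99.2% (replicate 1), 153% (replicate 2), 121% (replicate 3) and 154% (replicate 4). It was thus lowest in replicate 1, where Rps27 was at its highest (5342) and Rps27l at its lowest (5298). Rpl10l was not found in the table.

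No ribosomal protein mRNA passed the test between control and AF1 peptide-treated livers. Of the members, 50 large and 35 small subunit genes passed the filter, and in limma 0 of 50 and 0 of 35 were under an unadjusted p of 0.05, where the share over all 15989 tested genes was 6.19% (3.16% higher and 3.03% lower with AF1 peptide). The smallest Benjamini-Hochberg adjusted p value of a member in limma was 0.763, the same as the smallest of all genes. edgeR on the recovered reads also gave 0 members an unadjusted p value under 0.05, DESeq2 gave it to 1 (Rpl13a), and neither gave a member an adjusted p value under 0.05. In no member did the values of the groups fall apart without overlap, against 2.05% of all tested genes higher and 1.85% lower with AF1 peptide. Leaving out 1 mouse brought single members under an unadjusted p of 0.05: Rpl13a and Rpl38 (higher) without control replicate 3, Rpl38 without AF1 peptide replicate 1, Rps28 (higher) without AF1 peptide replicate 2 and Rpl22l1 (lower) without AF1 peptide replicate 4. Over all tested genes the numbers in these fits were, in the same order, 1111 of 15985, 1603 of 15994, 802 of 15993 and 1203 of 15974. The bounds on a change were within 1.5-fold for most members. For many of them they were not within 1.3-fold, the minimum marked by the study. In 48 of 50 large and 34 of 35 small subunit genes the 95% interval lay within a 1.5-fold change in either direction. The farther end of the interval had a median of 1.27-fold, and the intervals that went beyond 1.5-fold were those of Rpl28, Rpl32l and Rps4l. Intervals that went beyond 1.3-fold included those of Rpl13a (up to 0.54 on the log2 scale), Rpl38 (up to 0.55) and Rpl3 (down to -0.52). Others were those of Rpl21 (up to 0.52), Rpl5 (down to -0.48), Rpl41 (up to 0.48), Rps28 (up to 0.45) and Rps27a (up to 0.43), and this list is not complete. The interval held 0 in all 85.

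**Figure D2:**
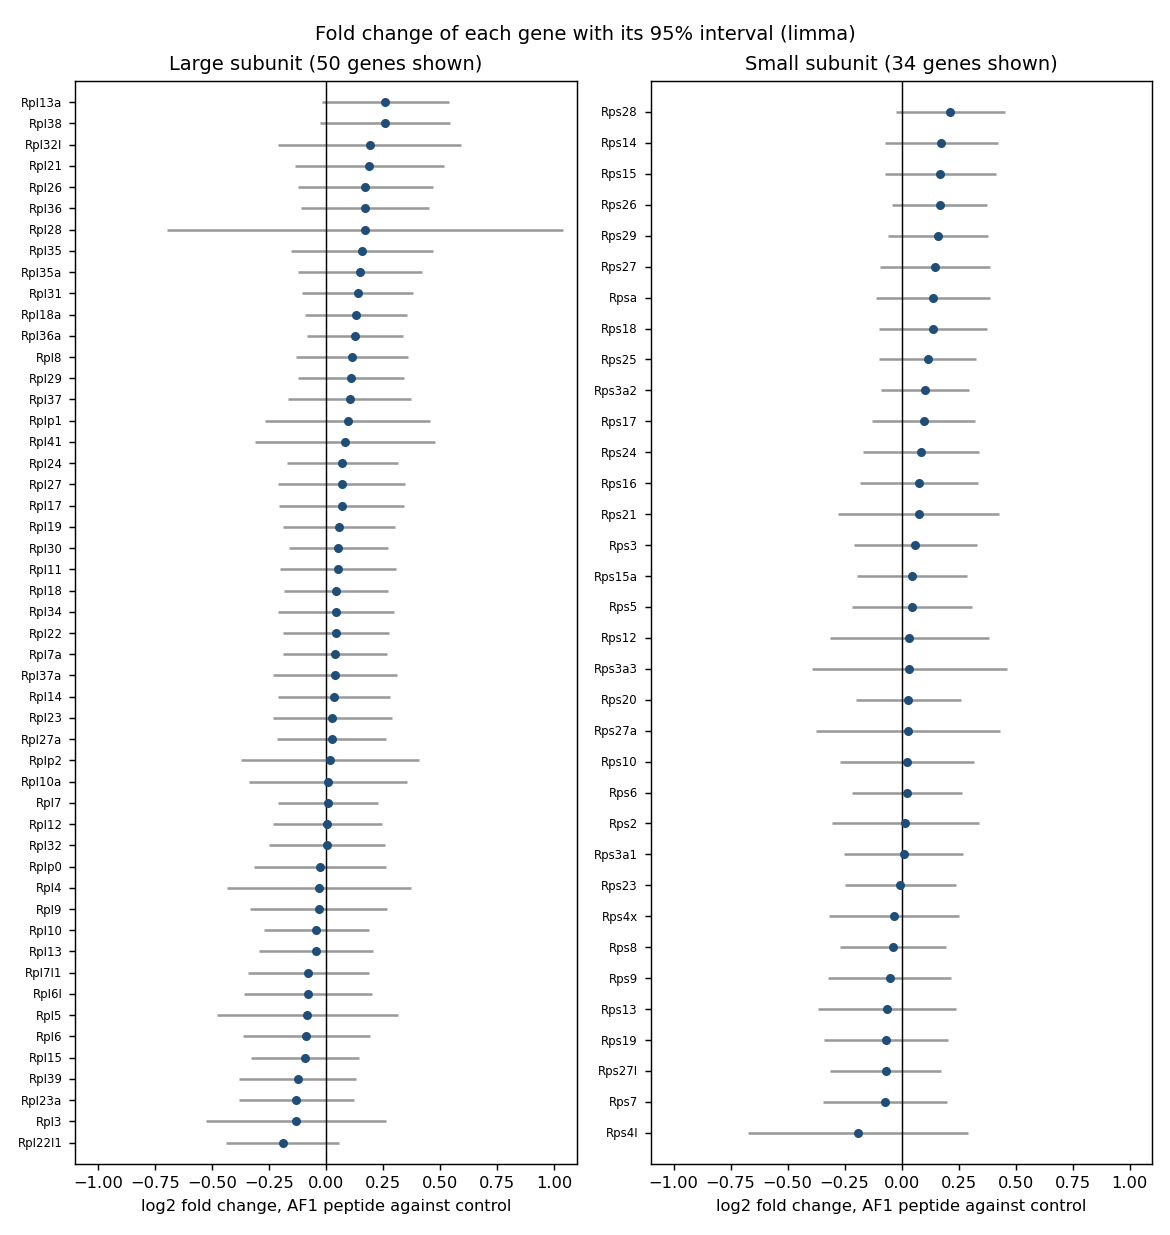
The log2 fold change of 84 of the 85 tested genes, AF1 peptide against control (point), with its 95% interval from limma (line), large subunit on the left and small subunit on the right, in order of fold change. Every line crosses 0. The points run from -0.19 to 0.26 on the left and from -0.19 to 0.21 on the right.

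The fold changes were small and leaned slightly to one side. The median log2 fold change was 0.043 over the 50 large subunit genes (range -0.19 to 0.26) and 0.044 over the 35 small subunit genes (range -0.19 to 0.22), beside -0.0083 over all tested genes. It was above 0 in 36 of 50 and 26 of 35 members, against 48.2% of all tested genes, but with libraries scaled to equal totals it was above 0 in 16 and 12 only, and the medians were -0.048 and -0.047 while that of all genes was -0.099. Without AF1 peptide replicate 1 the medians were 0.018 and 0.0071, with 27 of 50 and 18 of 35 above 0. Without control replicate 4 they were 0.0064 and 0.016, with 27 and 19 above 0. The lean was larger without AF1 peptide replicate 2 (0.086 and 0.12, with 43 and 30 above 0). It was also larger without control replicate 1 (0.087 and 0.10, with 38 and 29 above 0). Of the members, 36 large and 27 small subunit genes lay above the median of all genes with all mice, and 27 and 18 without AF1 peptide replicate 1. Members are not independent of each other, so these counts are a description and carry no test.

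The summed level of the large subunit genes was 354026, 319056, 337147 and 308265 normalized counts in control mice 1 to 4. It was 353316, 318560, 353909 and 351910 in AF1 peptide-treated mice 1 to 4. The groups overlapped, with control replicate 1 the highest of all and AF1 peptide replicate 2 level with control replicate 2. The sum of the small subunit genes was 231187, 210227, 219121 and 201238 in control mice, and 237987, 205336, 229223 and 229687 in AF1 peptide-treated mice. Here AF1 peptide replicate 1 was the highest of all and control replicate 4 the lowest. The difference of the mean log2 sums was 0.064 for the large and 0.066 for the small subunit, less than the pooled SD between mice (0.081 and 0.089). Without AF1 peptide replicate 1 the differences were 0.051 and 0.039, and with equal totals -0.027 and -0.025. They were 0.032 and 0.034 without control replicate 4, and 0.10 and 0.11 without AF1 peptide replicate 2.

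**Figure D3:**
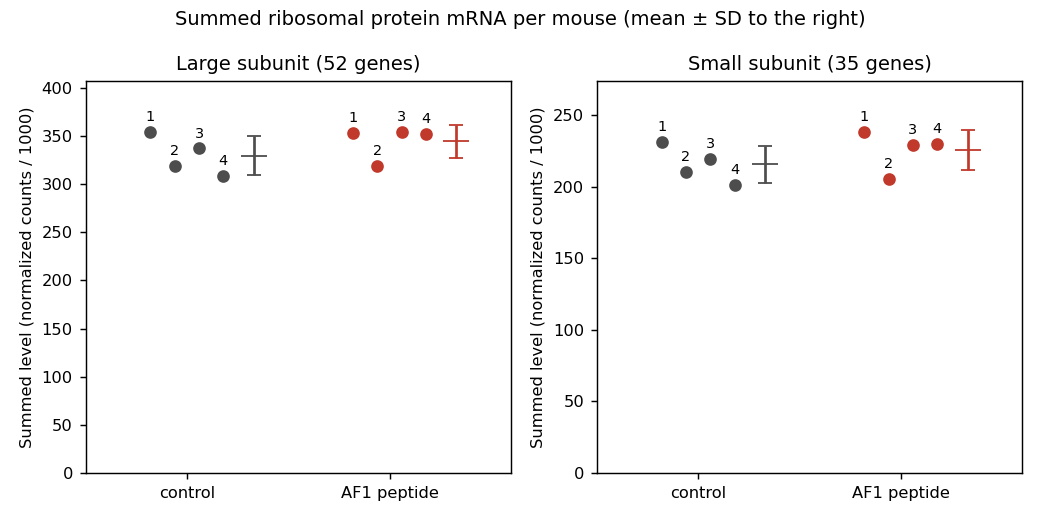
Summed normalized counts, divided by 1000, of the 52 large and 35 small subunit genes in each mouse (points, numbered by replicate), with the group mean and SD (n = 4) to the right of the points. Both axes start at 0. In both panels the groups overlap, and AF1 peptide replicate 2 lies below the other 3 treated mice.

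The 2 subunits kept step with each other. The summed large subunit level was 1.53 ± 0.01 (SD, n = 4) times that of the small subunit in control mice, and with AF1 peptide the ratio was 1.53 ± 0.03 (SD, n = 4). The lowest ratio was 1.48 in AF1 peptide replicate 1, and the others ranged from 1.52 to 1.55. As a share of all reads, the large subunit genes took 0.939 ± 0.051% (SD, n = 4) in control mice, and in treated mice they took 0.928 ± 0.135% (SD, n = 4). The small subunit genes took 0.614 ± 0.034% and 0.609 ± 0.099% (SD, n = 4 each). As a share of the reads outside the mitochondrial genome the order of the means was the other way, with 1.31 ± 0.05% in control and 1.38 ± 0.11% in treated mice for the large subunit and 0.859 ± 0.026% and 0.901 ± 0.077% for the small subunit (SD, n = 4 each). Reads of the mitochondrial genome took 28.5 ± 5.0% of all reads in control and 32.6 ± 7.8% in treated mice (SD, n = 4 each).

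Members also varied less between mice than other genes did. The SD of log2(normalized count + 1) over the 8 mice had a median of 0.159 in large and 0.148 in small subunit genes, against 0.251 over all tested genes. Among genes of the same level (1738 to 11350 normalized counts), the median SD was 0.148 for the 67 members in that range and 0.189 for 1624 other genes.

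Among the large subunit genes, the smallest p values belonged to Rpl13a, Rpl38, Rpl22l1 and Rpl36a. Rpl13a, which besides its ribosomal role silences translation of inflammatory mRNAs when phosphorylated, had 12102, 10383, 12928 and 10569 normalized counts in control mice 1 to 4 and 14656, 12657, 15444 and 12365 in AF1 peptide-treated mice 1 to 4. The highest control mouse lay above the lowest 2 treated mice. Its log2 fold change was 0.26 ± 0.13 (SE; limma unadjusted p = 0.0647, adjusted p = 0.763), and 0.23 without AF1 peptide replicate 1 (unadjusted p = 0.0963). The gene's span overlaps snoRNA genes of its introns in the annotation.

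Rpl38, known in mice for its part in the translation of Hox mRNAs, had 6105, 5279, 6665 and 5024 normalized counts in control and 5928, 6630, 7969 and 7060 in AF1 peptide-treated mice. AF1 peptide replicate 1 was the lowest treated mouse and lay within the controls, and replicate 2 (6630) also lay below the highest control (6665). The log2 fold change was 0.26 ± 0.13 (SE; limma unadjusted p = 0.0721, adjusted p = 0.763) with all mice. Without AF1 peptide replicate 1 it was 0.33 (limma unadjusted p = 0.0204), and Rpl38 was then the only member of either subunit under 0.05. Of all 15994 genes tested in that fit, 1603 were under 0.05. The smallest adjusted p value of any member was 0.475 in that fit.

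Rpl22l1, the paralog that replaces Rpl22 when it is lost, had 604.9, 533.7, 574.0 and 558.6 normalized counts in control and 477.8, 513.2, 427.5 and 582.2 in AF1 peptide-treated mice. Only replicate 4 of the treated mice lay within the control values (log2 fold change -0.19 ± 0.11, SE; limma unadjusted p = 0.12, adjusted p = 0.773). As a share of Rpl22, whose own log2 fold change was 0.04, Rpl22l1 had 17.8 to 19.99% in control and 13.7 to 18.6% in treated mice. Rpl36a had a log2 fold change of 0.13 ± 0.09 (SE; limma unadjusted p = 0.204, adjusted p = 0.797).

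Among the small subunit genes, Rps28, Rps26 and Rps29 were of those with the smallest p values. Rps28, which lies at the mRNA exit channel with Rps26, had 3757, 3437, 3957 and 3388 normalized counts in control and 4690, 3626, 4445 and 4129 in AF1 peptide-treated mice. Only treated replicate 2 lay below the highest control (log2 fold change 0.21 ± 0.11, SE; limma unadjusted p = 0.076, adjusted p = 0.763). Rps26 had 5830, 5544, 6178 and 5480 in control and 6862, 6177, 6660 and 6146 in treated mice, with the highest control just above the lowest 2 treated mice (log2 fold change 0.17 ± 0.09, SE; limma unadjusted p = 0.105, adjusted p = 0.766). Rps29 had a log2 fold change of 0.16 ± 0.10 (SE). Without AF1 peptide replicate 1 the values of Rps28, Rps26 and Rps29 were 0.16, 0.14 and 0.15.

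The most abundant members did not pass the test, and their intervals held 0. Rps15 had a log2 fold change of 0.17 ± 0.11 (SE), Rpl36 of 0.17 ± 0.13, Rpl19 of 0.06 ± 0.11 and Rps2 of 0.02 ± 0.15. Rps2, which ranged from 17180 to 22224 normalized counts in control and from 17310 to 23697 in treated mice, was negative without AF1 peptide replicate 1 (-0.07) and with equal totals (-0.07). Rps6, the substrate of the S6 kinases downstream of insulin and mTORC1, had 10812, 9917, 9585 and 9476 in control and 10770, 8979, 9828 and 10956 in treated mice. The treated range held the whole control range (log2 fold change 0.02 ± 0.11, SE). Rpsa, also known as the laminin receptor, had 12541, 12187, 12412 and 11540 in control and 15031, 11669, 13606 and 13467 in treated mice (0.14 ± 0.11, SE; limma unadjusted p = 0.247, adjusted p = 0.816), and treated replicate 2 lay among the controls.

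The stalk genes showed how far single mice set these values. Rplp1 had 9621, 8650, 8724 and 8938 normalized counts in control and 13726, 7930, 8979 and 8671 in treated mice. Replicate 1 was above every other mouse, and the other 3 treated mice were within or below the range of the controls. The log2 fold change was 0.10 ± 0.16 (SE) with replicate 1 and -0.08 without it. Rplp0, the stalk base and a common reference gene in PCR, had 6217, 6481, 5802 and 6020 in control and 7288, 4760, 6294 and 5975 in treated mice, with both extremes among the treated mice (-0.03 ± 0.13, SE, and -0.12 without replicate 1). Rplp2 ranged from 2327 to 3285 in control and from 2000 to 3385 in treated mice (0.02 ± 0.18, SE, and -0.08 without replicate 1).

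This pattern extended over many members. AF1 peptide replicate 1 was the highest of the 8 mice in 34 of the 85 tested members (17 of 50 large and 17 of 35 small), and AF1 peptide replicate 2 was the lowest in 31 (17 and 14). Both held at once in 20 members. Control replicate 4 was the lowest in 29 (16 and 13), and of the 18 members that were highest in AF1 peptide replicate 3, 10 were lowest in control replicate 4. The highest and the lowest mouse were both treated in 26 members and both control in 8. The highest was a treated and the lowest a control mouse in 37, and the reverse held in 14. These counts were not made over all genes, so they are not shown to be particular to the members. In reads of genes at large, AF1 peptide replicate 1 also differed most from the other treated mice. Its chi-square per degree of freedom was 256 to 344, against 16.1 to 43.9 between the others. In the order of the difference between AF1 peptide replicates 1 and 2, the first were Rpl28 (2.31-fold), Rpl4 (1.90-fold), Rpl5 (1.84-fold), Rpl3 (1.84-fold) and Rplp1 (1.73-fold), and the last were Rpl21 (0.767-fold) and Rpl35 (0.806-fold). These genes, with Rpl41, were picked for their values. Rpl3, a protein of the large subunit, had 3202, 3095, 2565 and 3680 normalized counts in control and 3890, 2110, 2724 and 2923 in treated mice. It had a log2 fold change of -0.13 ± 0.18 (SE) and of -0.28 (limma unadjusted p = 0.0726) without replicate 1. Rpl41, the shortest ribosomal protein, had 9514 in AF1 peptide replicate 1 and 5032 to 6756 in the other 7 mice.

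**Figure D4:**
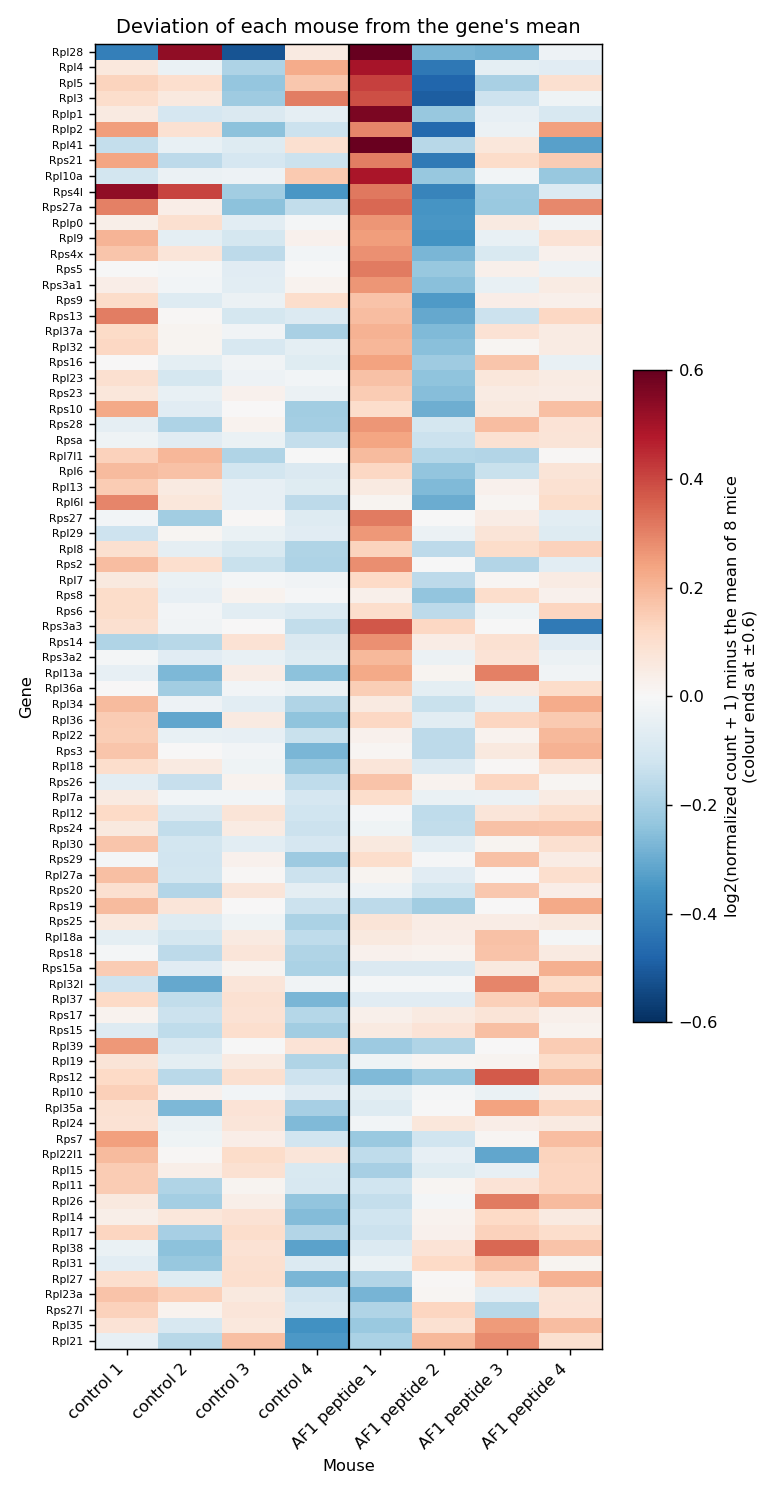
Deviation of each mouse (columns, controls left of the line) from the mean of the 8 mice for 84 of the 85 tested genes (rows), on the log2(normalized count + 1) scale with the colour ending at ±0.6, ordered by the difference between AF1 peptide replicates 1 and 2. Genes at the top are high in AF1 peptide replicate 1 and low in replicate 2, and most rows at the bottom are high in replicate 3 and low in control replicate 4.

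Over the 80 members with a coding transcript in the reference, Spearman's rho between coding transcript length and the difference of AF1 peptide replicates 1 and 2 was 0.18. For the difference of AF1 peptide replicate 3 and control replicate 4 it was -0.23. With the share of sequence in common with other genes the values were -0.04 and -0.03 over 85 members. In each case all points share 2 libraries, and these values are descriptions. Members whose spread over the 8 mice was largest were Rpl28 (SD 0.50 on the log2 scale) and Rpl3 (0.284) in the large subunit and Rps4l (0.363) and Rps27a (0.280) in the small subunit. Rps27a encodes ubiquitin fused to a ribosomal protein and had 6226, 5193, 4258 and 4552 normalized counts in control and 6412, 3956, 4322 and 6158 in treated mice. Each group held high and low mice (log2 fold change 0.03 ± 0.18, SE). Rps4l, annotated as a transcribed pseudogene, ranged from 454.7 to 838.9 in control and from 440.2 to 721.3 in treated mice, at 11.9 to 19.4% of Rps4x in control and 13.7 to 15.5% in treated mice.

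Ribosomal protein genes have many processed copies in the mouse genome, and this limits what a row of the table measures. In the GENCODE M21 transcripts, other genes held a median of 24.0% of a member's 50-base words, over 50% in 10 members and under 10% in 16. Any other gene was counted, on either strand, so these shares are not of copies alone. The gene sharing most words was Wdr38 for Rpl35 (56.8%) and Tlcd1, whose span overlaps it, for Rpl23a (48.8%). The table has 152 rows named as copies of ribosomal protein genes (symbols with -ps), whose sum was 10.8 to 13.0% of that of the members. In 6 members the copies held over 50% of the member's own level. Among them were Rpl28, Rpl15 (108%), Rpl10 (77.4%), Rpl35a (76.5%) and Rps6 (61.2%). How reads that match several genes were counted is not given in the sources used here.

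Rpl28, a protein of the large subunit, was the extreme case. It had 8.24, 16.7, 7.57 and 11.7 normalized counts in control and 22.4, 9.13, 9.06 and 11.0 in treated mice. Its copy row Rpl28-ps1 had 735.9, 598.7, 812.9 and 628.1 in control and 752.1, 918.7, 1095 and 712.6 in treated mice. In every mouse the copy row held more counts than the gene itself. The rows of Rpl28 copies summed to 7108% of the gene on average, so the row named Rpl28 cannot be taken as the level of its mRNA. Its log2 fold change was 0.17 ± 0.39 (SE) and that of Rpl28-ps1 0.31 ± 0.15 (SE; limma unadjusted p = 0.0672, adjusted p = 0.763).

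**Figure D5:**
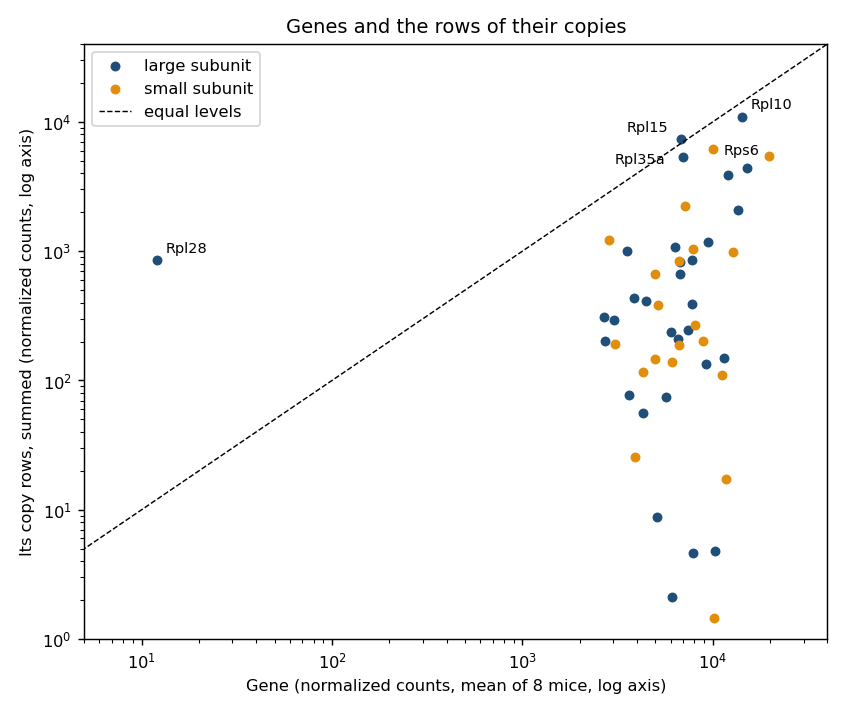
Mean normalized count of 51 of the 52 members with copy rows (x axis) against the sum of those rows (y axis), both on log axes, with the line of equal levels and the 5 members named whose copies hold over 50% of their level. Rpl28 lies far to the left of all other genes, at 12.0 against 852 in its copies.

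Of the 152 copy rows 113 were tested, and 6 were higher with AF1 peptide at an unadjusted p value under 0.05 (3.16% of all genes were) and 0 lower (3.03%), with a median log2 fold change of 0.11. Leaving out AF1 peptide replicate 1 gave 8 higher and 1 lower. The number of higher rows was 1 with equal totals (median 0.018), and with single mice left out it ran from 3 (without AF1 peptide replicate 2) to 15 (without control replicate 3) and 21 (without AF1 peptide replicate 4). Of all tested genes, in either direction, 990 were called with all mice, 1603 without AF1 peptide replicate 1 and 899 with equal totals. Without AF1 peptide replicate 2, control replicate 3 and AF1 peptide replicate 4 the numbers were 802, 1111 and 1203. By p value the first were Rpl38-ps2, with 880.1, 950.3, 1088 and 919.5 normalized counts in control and 1175, 1180, 1199 and 1091 in treated mice (log2 fold change 0.28 ± 0.09, SE; limma unadjusted p = 0.0141, adjusted p = 0.763), and Rpl36-ps3 (0.57 ± 0.20, SE; limma unadjusted p = 0.0151, adjusted p = 0.763). The other 4 were Rpl7a-ps10, Rpl7-ps7, Rpl7a-ps5 and Rpl36-ps2. The Rpl38-ps2 row shares 27.4% of the words of Rpl38, its parent, so these reads may come from either gene. Whether the copies or their parents gave these reads was not tested.

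Genes that work beside the ribosomal proteins were described as lists. Of 4 ribosomal and ribosome-bound proteins outside the symbol rule, none had an unadjusted p value under 0.05 in limma. Fau, a ubiquitin-like protein fused to a small subunit protein, had 12959 in AF1 peptide replicate 1 and 8383 to 9629 in the other 7 mice (0.18 ± 0.13, SE, and 0.06 without that mouse). Rack1, a scaffold on the small subunit, had a value of 0.01 ± 0.09 (SE) and Rpl36al, a relative of Rpl36a, 0.10 ± 0.12 (SE).

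None of 14 elongation factors and other TOP mRNAs passed (median log2 fold change -0.05). The smallest p values were those of Eif4b, a helicase cofactor in initiation (0.16 ± 0.12, SE), and Eef1d, an elongation factor exchange subunit (0.10 ± 0.10, SE). None of 17 mTORC1 and cap-binding genes passed. The nearest were Tsc2, an inhibitor of mTORC1, with a log2 fold change of 0.19 ± 0.09 (SE; limma unadjusted p = 0.0518, adjusted p = 0.763), and Eif4e, the cap-binding protein, with -0.29 ± 0.13 (SE; limma unadjusted p = 0.0542, adjusted p = 0.763). Without AF1 peptide replicate 1 these p values were 0.0492 and 0.0337. None of 8 snoRNA host genes passed, with Zfas1 at 0.14 and Snhg3 at -0.13.

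Of 33 genes of rRNA transcription and ribosome assembly, 2 rose and 2 fell at an unadjusted p value under 0.05, against 3.16% and 3.03% of all tested genes (median log2 fold change 0.00). The counts were 3 and 6 without AF1 peptide replicate 1, and 0 and 1 with equal totals. Of all tested genes, 1603 of 15994 and 899 of 16003 were under 0.05 in these fits, in either direction. Npm1, a nucleolar chaperone of ribosome export, fell from 2160, 1895, 2027 and 2198 normalized counts in control to 1849, 1611, 1545 and 1814 in treated mice, without overlap (log2 fold change -0.28 ± 0.10, SE; limma unadjusted p = 0.0153, adjusted p = 0.763). Rrp9, of the U3 snoRNP that processes pre-rRNA, rose from 285.9, 332.9, 292.9 and 267.1 to 355.5, 396.3, 356.7 and 341.6, also without overlap (0.30 ± 0.11, SE; limma unadjusted p = 0.0191, adjusted p = 0.763). Polr1a, the largest subunit of RNA polymerase I, rose (0.27 ± 0.10, SE; limma unadjusted p = 0.021, adjusted p = 0.763), and Bysl, a small subunit assembly factor, fell with the groups overlapping (-0.30 ± 0.13, SE; limma unadjusted p = 0.0395, adjusted p = 0.763). All 4 kept these directions without AF1 peptide replicate 1 (-0.32, 0.31, 0.24 and -0.33). Npm1 was under an unadjusted p of 0.05 in limma with every single mouse left out and with equal totals, and the other 3 were not in all of these fits. Rrp9 was not under it without control replicate 4 (log2 fold change 0.25) or AF1 peptide replicate 2 (0.26) or with equal totals (0.21). Polr1a was not without control replicate 2 (0.22) or AF1 peptide replicate 3 (0.25) or with equal totals (0.18). Bysl was not without control replicate 1, 2 or 4 or AF1 peptide replicate 2 or 3 (-0.31 to -0.22), with equal totals (-0.39) or with the replicate number as a block.

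Of 78 mitochondrial ribosomal proteins, which serve the separate ribosome of that organelle, 1 rose and 0 fell, against the same 3.16% and 3.03%. When AF1 peptide replicate 1 was left out 1 rose and 4 fell, and with equal totals 0 rose and 1 fell. In these fits 1603 of 15994 and 899 of 16003 tested genes were called in either direction. The gene called with all mice was Mrpl38, with 2605, 2660, 2765 and 2780 normalized counts in control and 3272, 4685, 2913 and 3239 in treated mice. The groups did not overlap, and AF1 peptide replicate 2 was far above the rest (0.36 ± 0.14, SE; limma unadjusted p = 0.0258, adjusted p = 0.763; 0.22 and unadjusted p = 0.0521 without that mouse, 0.34 and 0.35 with p above 0.05 without control replicate 1 or 2). Mrps10 had -0.22 ± 0.11 (SE; limma unadjusted p = 0.066, adjusted p = 0.763). Over all lists 11 of 267 tested genes were under an unadjusted p of 0.05 (4.12%, against 6.19% of all tested genes), and this count changed with single mice. It was 26 without AF1 peptide replicate 1, 7 without replicate 2 and 27 without replicate 4, and 6 and 24 without control replicates 2 and 3. The number over all tested genes changed as well. From 990 of 15989 with all mice it went to 1603 of 15994 without AF1 peptide replicate 1. Without AF1 peptide replicates 2 and 4 it was 802 of 15993 and 1203 of 15974. Without control replicates 2 and 3 it was 542 of 15989 and 1111 of 15985.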

How the data were processed

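Liver RNA of 8 mice was measured by RNA-Seq. The authors used Trim Galore 0.6.7 for trimming, HISAT2 for alignment (to mm39 per the labels), SAMtools 1.17 for sorting and GenomicAlignments for counts per gene. They deposited normalized counts, a signal of whole reads divided by 1 size factor per library. The steps between low values gave back the reads (100% of 172256 values whole within 0.01), with size factors of 0.5475 to 1.214, the same as median-of-ratios factors. Replicates were not pooled, and replicates of a group differed by more than sampling noise (chi-square of 16.1 to 344 per degree of freedom). Their use of strand and their annotation are not given in the sources used here.

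limma 3.58.1 (R 4.3.3), with a variance trend, was fitted to log2(normalized count + 1) over the 15989 genes with a mean of at least 10. A fold change on this scale understates that of low genes. A gene was called at an unadjusted p value under 0.05, the study's threshold, and p values were adjusted by Benjamini-Hochberg over all tested genes. The test was tested on simulated counts. Members, gene lists and the rule for naming genes were chosen with earlier results of these data known. Named members were, per subunit, the 4 smallest p values, the 3 highest and 2 lowest levels per kb, the 2 largest SDs, members without overlap of the groups, paralog pairs, the stalk genes, Rpsa, Rps6 and Rps27a, and of each list the 2 smallest p values. Of these, 2 genes are not reported here. Transcript lengths and 50-base words came from GENCODE M21 and promoters from RefSeq GRCm38.p6, both of another build than the reads, so that they were joined by gene name only. Alternatives were pseudocounts of 0.5 and 5, other filters, TMM and equal totals, no trend, each gene's own variance, the replicate number as a block, count tests on the reads (DESeq2 1.42.0 and edgeR 4.0.16), a 1.3-fold minimum and each mouse left out. P-values measure the spread between these mice. Depth was 23031880 to 45117528 reads per mouse.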

Additional observations from a re-analysis of the deposited data

Results flagged for a closer look

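Of 116 groups of 4 mice examined (58 items in each of the 2 groups), 2 held a mouse whose gap to its nearest neighbour, as a share of the group's whole range on the log2 scale, was above Dixon's 95% critical value, and chance gives about 1 in 20 such groups. Both had AF1 peptide replicate 2, the shallowest library, as the lowest mouse. In Rpl36 the treated mice had 8409, 7404, 8439 and 8598 normalized counts and the gap took 0.851 of the log2 range. In the summed large subunit level they had 353316, 318560, 353909 and 351910, and the gap took 0.946 of the log2 range. Without that mouse the log2 difference of the summed large subunit level was 0.10 in place of 0.06. The choice of scale matters here. On the count scale, an alternative chosen after seeing the data, 5 of 102 groups passed, the same 2 (0.841 and 0.943) and 3 more, which were Rpl28 (0.853) and Fau (0.835) with AF1 peptide replicate 1 as the highest treated mouse and Rpl36-ps3 (0.848) with control replicate 3 as the highest control.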

How the results depend on the processing

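No member had an adjusted p value under 0.05 under any alternative run. Scaling all libraries to equal totals moved the median log2 fold change to -0.048 in the large and -0.047 in the small subunit and the differences of the summed levels to -0.027 and -0.025, and left 3 listed genes called in place of 11. Over all tested genes 899 were then called in place of 990. This scaling lowers every member's log2 fold change by nearly the same amount (0.083 to 0.091), which took the members above 0 from 62 to 28. The named genes whose sign changed by this shift were Rpl19 (-0.032), Rps2 (-0.074), Rps3a3 (-0.056), Rps15a (-0.045), Rps27a (-0.064), Rpl7 (-0.082), Rpl22 (-0.048), Rplp2 (-0.073), Rps6 (-0.067) and Rack1 (-0.079). The share of mitochondrial-genome reads moves with these totals. With scaling to equal totals outside the mitochondrial genome the medians were 0.04 and 0.04. DESeq2 called 1 large subunit gene higher and each gene's own variance 1 small subunit gene higher (Rps26), and the 1.3-fold minimum left 4 listed genes. With the replicate number as a block, 1 large subunit gene (Rpl13a) and 18 listed genes were called, beside 1244 of all 15989 tested genes. The replicate numbers are shared by different mice, and deviations of same-numbered mice correlated at 0.24, 0.02, 0.22 and -0.06. Mice of different numbers in the 2 groups correlated at -0.27 to 0.14, below the values of replicates 1 and 3. These correlations do not settle whether the mice were paired. The labels give no pairing, and the main test used none. With 1 mouse left out in turn, 0 to 2 large subunit genes were higher and 0 to 1 lower, and 0 to 1 small subunit genes higher. The medians ranged from 0.0064 to 0.087 and from 0.0071 to 0.12, the differences of the summed levels from 0.032 to 0.10 and from 0.034 to 0.11, and called listed genes from 6 to 27. Called genes among all tested genes ranged from 542 to 1603 in these fits. The same omissions gave log2 fold changes on both sides of 0 for Rplp1 (-0.076 to 0.19), Rpl3 (-0.28 to 0.014), Rpl28 (-0.11 to 0.38), Rps2 (-0.072 to 0.081), Rps3a3 (-0.084 to 0.18), Rps15a (-0.017 to 0.10), Rps27a (-0.083 to 0.15), Rpl7 (-0.029 to 0.064), Rpl22 (-0.015 to 0.10), Rps4x (-0.13 to 0.053), Rplp0 (-0.12 to 0.085), Rplp2 (-0.077 to 0.18), Rps6 (-0.015 to 0.081), Snhg3 (-0.24 to 0.0021) and Rack1 (-0.020 to 0.054). Leaving out members that share over 50% of their words kept the medians at 0.04 and 0.05. The cause of these shifts was not tested. With 4 mice per group the spread between mice sets the intervals, and Rpl28 also rests on few reads.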
